A study of Homo sapiens with 6 samples.

Results

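The 8 genes SERINC2, KISS1, GOLT1A, SELP, AMPD3, RNF141, PPP1R3F and FAM240C each had entries of both a METTL3 and a PRMT5 antibody in peak lists from 2 prostate cancer cell lines. They were chosen by the lists themselves: the summit of an entry, its highest point, lay inside the gene or within 3 kb of its start or end in 3 or 4 of 4 lists. They are 8 of 69 protein-coding genes that met this rule, among 20037 tested on hg38. The rule alone does not separate them from the other 61, and why these 8 were taken is not known here. With gene ends alone the rule left 11 genes, of which 7 are described here and the other 4 carry only LOC symbols. SELP was not among these 11, since its entries, in all 4 lists, lie deep in the gene. Since the same lists chose the genes, the values that follow describe them and support no test.

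The lists came from LNCaP cells, which respond to androgens, and from PC3 cells, which grow without them, both labelled human prostate cancer and kept in the same medium. Each line gave 1 library with a METTL3 antibody, 1 with a PRMT5 antibody and 1 control that is titled IgG and whose antibody field reads 2nd Ab. In each library an antibody held a protein G-Tn5 transposase at its target in 100000 cells, and the cut DNA was amplified over 16 PCR cycles. Peaks of every antibody library were called with the control of that line as background, which the METTL3 and PRMT5 lists of a line therefore share, and with 1 library per group there is no replicate error.

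METTL3 is the catalytic subunit of the nuclear complex that writes N6-methyladenosine on RNA, and it can meet chromatin where that RNA is made. PRMT5 places symmetric dimethyl marks on arginines of histones and of splicing proteins, and on histones such marks have been studied mostly at gene promoters. The 8 genes belong to no common pathway. They encode a serine incorporator, a neuropeptide precursor, a Golgi transport protein, a cell adhesion receptor, a purine enzyme, a RING finger protein, a phosphatase subunit and a small protein of unknown function.

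On chromosomes 1 to 22, X and Y the lists held 173 (LNCaP METTL3), 980 (LNCaP PRMT5), 7453 (PC3 METTL3) and 1661 entries (PC3 PRMT5). The reads behind them are unknown, so a missing entry means only that none was listed at an unknown depth. An entry carries a fold over the control and a −log10 q from the authors' caller, and both are read only within their own list. Neither METTL3 nor PRMT5 had an entry at its own gene in any list. Of 8 luminal prostate markers KLK2 had an entry, in PC3 METTL3, and KLK3 and the other 6 had none, while of 6 mesenchymal markers AXL had 1, in PC3 PRMT5. Over all protein-coding genes the shares with an entry were 11.6% in PC3 METTL3 and 4.59% in PC3 PRMT5, and nothing is read from the marker counts. Such lists do not measure expression, so the identity of the lines could not be checked from them.

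All 8 genes had entries in both PRMT5 lists, 6 had one in LNCaP METTL3 and 4 in PC3 METTL3. Among all protein-coding genes the shares with an entry were 0.389% in LNCaP METTL3, 3.08% in LNCaP PRMT5, 11.6% in PC3 METTL3 and 4.59% in PC3 PRMT5. Entries in 3 or 4 lists were found at 0.344% of these genes, and 0.105%, 21 genes, had a single region shared by 3 or 4 lists, where entries of a region overlap by at least 1 bp. Because the lists chose the genes, nothing is read from these shares. SERINC2 and SELP had entries in 4 lists and the others in 3. KISS1 and GOLT1A share their entries, and so do AMPD3 and RNF141, which leaves 6 separate loci with 23 entries. In 5 of the 6 a single region joined 3 or 4 lists, and at PPP1R3F the METTL3 entries lay apart from the PRMT5 entries.

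**Figure D1:**
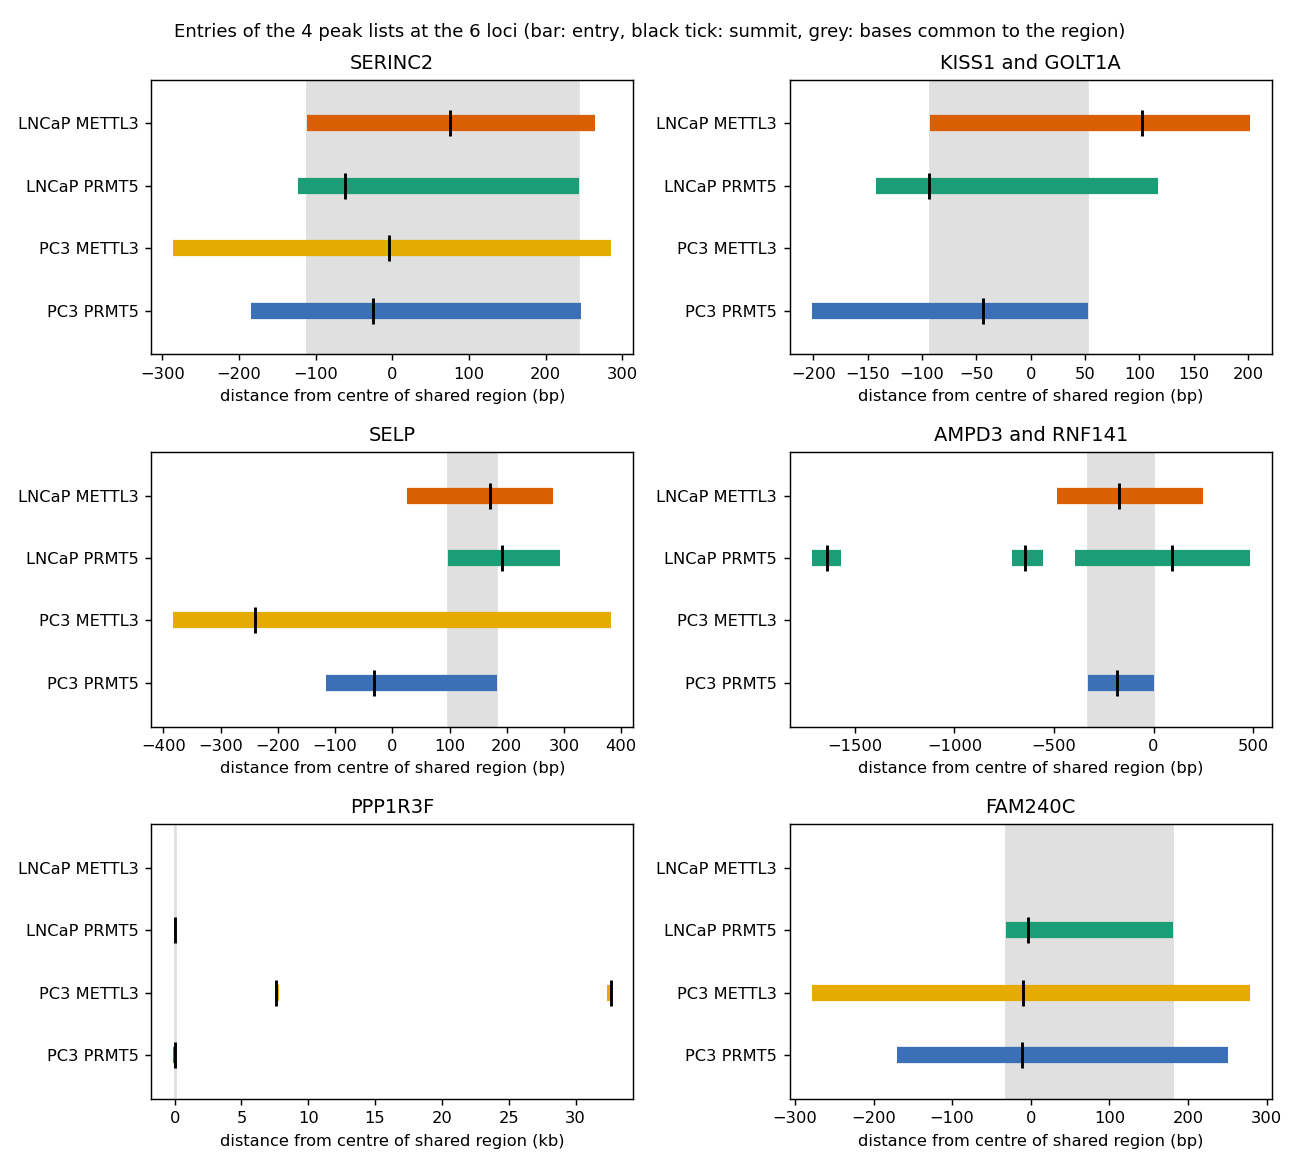
Entries of the 4 lists at the 6 loci, as horizontal bars with a black tick at the summit, against distance from the centre of the shared region, in bp (kb for PPP1R3F); the grey band marks the bases common to all entries of the region. The summits lie within 8 bp of each other at FAM240C and spread over 432 bp at SELP, and at PPP1R3F the PC3 METTL3 entries lie 7.59 kb or more from those of PRMT5.

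The sites nearest to a gene start were those of KISS1 and PPP1R3F, so the RefSeq windows of 250 bases before to 50 after their starts (GRCh38.p14) are shown. KISS1 lies on chromosome 1 with its window at positions 204196442 to 204196741, minus strand, and PPP1R3F on chromosome X with its window at positions 49269543 to 49269842, plus strand. Capitals mark the motifs searched on both strands, the GC box GGGCGG, the CCAAT box CCAAT, the TATA box TATAAA and TGACG, the core of the cAMP response element.
KISS1: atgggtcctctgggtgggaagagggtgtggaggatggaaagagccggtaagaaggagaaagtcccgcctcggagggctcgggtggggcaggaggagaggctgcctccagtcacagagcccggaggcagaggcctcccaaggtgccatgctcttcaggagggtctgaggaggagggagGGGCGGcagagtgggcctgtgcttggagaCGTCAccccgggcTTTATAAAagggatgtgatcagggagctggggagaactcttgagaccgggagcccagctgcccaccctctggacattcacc
PPP1R3F: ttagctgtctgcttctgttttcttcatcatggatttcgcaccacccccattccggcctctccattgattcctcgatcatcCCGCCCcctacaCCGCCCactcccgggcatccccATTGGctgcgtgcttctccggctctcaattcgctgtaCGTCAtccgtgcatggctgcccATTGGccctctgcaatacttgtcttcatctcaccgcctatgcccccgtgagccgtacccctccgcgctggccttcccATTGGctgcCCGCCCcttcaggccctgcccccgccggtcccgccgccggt
In KISS1 a TATA box match on each strand, overlapping the other at positions 220 and 222 of the window, preceded the start at position 251, with 1 GC box and 1 TGACG core. PPP1R3F held 3 GC boxes, 3 CCAAT boxes and 1 TGACG core but no TATA box. Of 22199 such windows of protein-coding genes, 9.47% held the TATA box, 56.3% the GC box, 34.7% the CCAAT box and 27.9% the TGACG core. Neither window touched an entry, the nearest entry lying 221 bp away at PPP1R3F and 811 bp away at KISS1. A match describes these letters and is no evidence of a bound factor.

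KISS1, 6.15 kb long on the minus strand of chromosome 1 (positions 204190341 to 204196491), encodes the precursor of kisspeptin, a peptide ligand of KISS1R that was first known as a metastasis suppressor in melanoma and that drives release of gonadotropin-releasing hormone. Its LNCaP METTL3 entry spanned positions 204195337 to 204195631 with a fold of 7.34 and a −log10 q of 6.10. The LNCaP PRMT5 entry spanned 204195287 to 204195547 with a fold of 4.55 and a −log10 q of 1.80. The PC3 PRMT5 entry spanned 204195228 to 204195482 with a fold of 4.59 and a −log10 q of 5.71. PC3 METTL3 listed none, and its nearest entry lay 76.0 kb away. All 3 summits lay inside KISS1, at 959 bp (LNCaP METTL3), 1155 bp (LNCaP PRMT5) and 1105 bp (PC3 PRMT5) downstream of its start.

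The entries at KISS1 had 146 bp in common. The PRMT5 summits of the 2 lines were 50 bp apart, and the METTL3 summit lay 196 bp from the LNCaP PRMT5 summit and 146 bp from the PC3 PRMT5 summit. Within its own list the METTL3 entry had a higher fold than 78.0% of entries, whereas the PRMT5 entries were above only 12.7% in LNCaP and 17.8% in PC3. The LNCaP PRMT5 entry was also weak by −log10 q, above 6.22% of its list.

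GOLT1A, whose yeast relative Got1 works in transport between the endoplasmic reticulum and the Golgi, was counted through the same entries. It lies upstream of KISS1 on the same strand, at positions 204198163 to 204213988, and none of the summits was inside it. They lay 2.63 kb (LNCaP METTL3), 2.83 kb (LNCaP PRMT5) and 2.78 kb (PC3 PRMT5) beyond its 3′ end, and 18.5 kb to 18.7 kb from its start. These summits are just inside the window of 3 kb, and a window of 1 kb left GOLT1A with none. The nearest summit just outside the window of any of the 8 genes was 3.75 kb from RNF141.

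SELP encodes P-selectin, the receptor that activated platelets and endothelial cells use to hold leukocytes through the ligand SELPLG. The gene covers positions 169588849 to 169630124 of chromosome 1, minus strand. Its LNCaP METTL3 entry, at positions 169621287 to 169621542, had a fold of 10.5 and a −log10 q of 12.5. The LNCaP PRMT5 entry, at 169621357 to 169621554, had a fold of 8.65 and a −log10 q of 8.94. Both summits were 8.67 kb to 8.69 kb downstream of the gene start and 21 bp apart.
In PC3 the METTL3 entry covered positions 169620878 to 169621643 with a fold of 5.10 and a −log10 q of 5.88. The PC3 PRMT5 entry covered 169621145 to 169621444 with a fold of 7.19 and a −log10 q of 7.42. The PC3 summits were 209 bp apart and each lay 202 bp or more from those of LNCaP, so the 4 entries overlapped in only 88 bp and 1 of the 4 summits fell in that stretch.

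SELP had the highest folds of the 6 loci in 4 of 4 lists. Its LNCaP METTL3 entry was number 7 of 173 by fold, above 96.0% of the list. Its fold exceeded 75.9% of LNCaP PRMT5 entries, 77.4% of PC3 PRMT5 entries and 50.0% of PC3 METTL3 entries. It was the one member gene of the 8 with entries in 3 or more lists when a fold of at least 5 was asked for. No other entry of LNCaP METTL3, LNCaP PRMT5 or PC3 PRMT5 lay within 1 Mb of the site, and PC3 METTL3 had 5 others. PPP1R3F had the same counts, and LNCaP METTL3 had no other entry within 1 Mb of any of the 6 loci. Of 5 platelet and endothelial markers, PECAM1, a gene of 71.4 kb, had entries, in PC3 PRMT5, and VWF, CDH5, ITGA2B and SELE had none. In PC3 PRMT5 4.59% of all protein-coding genes had an entry, and nothing is read from this count.

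SERINC2 encodes a multi-pass membrane protein of the serine incorporator family, whose members SERINC3 and SERINC5 restrict HIV. It covers positions 31409777 to 31434678 of chromosome 1, plus strand, and its entries lay near its 3′ end, 2.69 kb to 2.83 kb before it. The LNCaP METTL3 entry, at positions 31431801 to 31432177, had a fold of 2.97 and a −log10 q of 27.2. The LNCaP PRMT5 entry, at 31431789 to 31432156, had a fold of 3.77 and a −log10 q of 30.5. The place is also inside LOC124903900, a long noncoding RNA gene of unstated strand.
In PC3 the METTL3 entry, at positions 31431627 to 31432198, had a fold of 3.39 and a −log10 q of 44.5. The PC3 PRMT5 entry, at 31431728 to 31432159, had a fold of 3.48 and a −log10 q of 34.4. The 4 entries had 356 bp in common, which held all 4 summits, and the summits spread over 137 bp.

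At SERINC2 fold and −log10 q stood far apart in rank. By fold the entries were above only 12.7% of LNCaP METTL3, 7.45% of LNCaP PRMT5, 1.96% of PC3 METTL3 and 7.35% of PC3 PRMT5 entries. By −log10 q they were above 94.8%, 86.9%, 99.9% and 95.6% of the same lists in that order, and the entry was number 9 both among the 173 of LNCaP METTL3 and among the 7453 of PC3 METTL3. In PC3 METTL3 the SERINC2 entry had a −log10 q of 44.5, against a median of 1.89 over the 674 entries with a fold within 1.2 times of it. A peak caller gives a larger −log10 q at an equal fold where more reads are counted. No read counts were at hand, so the level of the control at this place was not tested.

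FAM240C, a small gene of unknown function on the minus strand of chromosome 2 (positions 241893988 to 241902585), had the closest summits of the 5 regions shared by 3 or 4 lists. The PC3 METTL3 entry, at positions 241896308 to 241896865, had a fold of 4.60 and a −log10 q of 19.8. The PC3 PRMT5 entry, at 241896416 to 241896838, had a fold of 6.52 and a −log10 q of 39.1. The LNCaP PRMT5 entry, at 241896555 to 241896768, had a fold of 3.01 and a −log10 q of 4.33. LNCaP METTL3 listed none. The 3 summits lay within 8 bp of each other, those of PC3 2 bp apart, and all fell in the 214 bp common to the entries, 6002 bp to 6010 bp downstream of the gene start and 2.59 kb to 2.60 kb before its 3′ end. RefSeq windows place other starts of FAM240C nearer, with the closest summit 2.56 kb and 3.88 kb downstream of them.

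The FAM240C entries too had a high −log10 q for their fold in PC3, above 99.9% of METTL3 entries and 99.3% of PRMT5 entries with a fold within 1.2 times of theirs, and above 42.9% in LNCaP PRMT5. The site is inside the long noncoding RNA gene LINC01237 and 279 kb before the end of the last annotated gene of chromosome 2. Further PRMT5 entries clustered near it, 3 in LNCaP and 2 in PC3 within 100 kb. The strongest of these had a fold of 12.1 in LNCaP PRMT5, 14.8 kb away, and the PC3 PRMT5 entry whose summit lay 14.8 kb away had a fold of 3.11.

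AMPD3 and RNF141 face each other on chromosome 11, AMPD3 on the plus strand (positions 10450388 to 10507579) and RNF141 on the minus strand (10511673 to 10541187), and the entries lay between their 3′ ends, inside neither. AMPD3 encodes an AMP deaminase, which turns AMP into IMP and is the form best known from red blood cells, and RNF141 encodes a RING finger protein. Between them the gene table places MTRNR2L8, a pseudogene at positions 10507887 to 10509176 whose name marks its likeness to RNR2, the mitochondrial 16S ribosomal RNA gene, and within it the microRNA gene MIR4485.
The hairpin and mature RNA of MIR4485 (RefSeq, GRCh38.p14, chromosome 11, positions 10508270 to 10508326, minus strand) are shown because entries lie on either side of it, the nearest 272 bp away. Capitals mark the seed, bases 2 to 8 of the mature RNA.
MIR4485 hairpin: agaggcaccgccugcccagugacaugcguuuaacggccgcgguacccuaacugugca
hsa-miR-4485-3p: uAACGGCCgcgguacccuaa

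LNCaP PRMT5 had 3 entries at this locus. The strongest, at positions 10509174 to 10510051, had a fold of 6.63 and a −log10 q of 266. The others, at 10507852 to 10507998 and 10508856 to 10509012, had folds of 4.09 and 4.67 with −log10 q of 7.88 and 42.1, and their summits lay within MTRNR2L8. The LNCaP METTL3 entry, at positions 10509085 to 10509817, had a fold of 2.91 and a −log10 q of 40.0. The PC3 PRMT5 entry, at 10509240 to 10509571, had a fold of 1.62 and a −log10 q of 16.0, and PC3 METTL3 listed none.
The strongest LNCaP PRMT5 entry, the METTL3 entry and the PC3 PRMT5 entry overlapped in 332 bp, and their summits lay 486 bp, 218 bp and 207 bp beyond MTRNR2L8. The METTL3 summit was 11 bp from the PC3 PRMT5 summit and 268 bp from that of LNCaP PRMT5. The summits were 0.348 kb to 2.08 kb beyond the 3′ end of AMPD3. For RNF141 the 4 counted summits lay 2.01 kb to 2.75 kb beyond the 3′ end, and the remaining LNCaP PRMT5 summit, at 3.75 kb, was outside the window.

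Fold and −log10 q ranked apart at AMPD3 and RNF141. The PC3 PRMT5 fold was above 0.301% of its list and the LNCaP METTL3 fold above 11.6%, while by −log10 q they were above 90.7% and 97.1%. The strongest LNCaP PRMT5 entry was above 50.8% of its list by fold and 96.8% by −log10 q, and the weakest above 9.39% and 58.1%. Copies of mitochondrial sequence share reads with the mitochondrial genome. The lists held 3 mitochondrial entries in LNCaP METTL3, 8 in LNCaP PRMT5 and none in PC3 METTL3 or PC3 PRMT5, and 2 of those of LNCaP PRMT5 overlapped RNR2. Entries at a pseudogene were counted with the summit inside it or within 3 kb of it. Of the 13 MTRNR2L genes, a list chosen after these values were seen, 3 had an entry in LNCaP METTL3, 6 in LNCaP PRMT5, 1 in PC3 METTL3 and 1 in PC3 PRMT5. MTRNR2L8 alone had entries in 3 lists, and its LNCaP METTL3 and PC3 PRMT5 summits lay outside it. Its entries are the ones that chose AMPD3 and RNF141, so its number of lists was fixed by the rule. It is counted among the genes with entries in LNCaP METTL3 and LNCaP PRMT5 and is the only 1 in PC3 PRMT5. Nothing is therefore read from setting these counts beside the shares that follow. Among all 15580 genes annotated as pseudogenes, these 13 included, the shares with an entry were 0.167%, 0.552%, 1.92% and 0.411% in the same lists in that order, and 0.077%, 12 genes, had entries in 3 or 4 lists. MTRNR2L1 had the highest −log10 q of them, 265 in LNCaP METTL3 and 1029 in LNCaP PRMT5. Whether reads at the AMPD3 and RNF141 locus came from mitochondrial DNA was not tested, since no reads were at hand. Whether either protein sits at this locus was not tested either.

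PPP1R3F encodes a subunit that directs protein phosphatase 1 to glycogen. It covers positions 49269793 to 49301469 of chromosome X, plus strand, and was the single member gene with entries just before its start. The LNCaP PRMT5 entry, at positions 49269213 to 49269322, had a fold of 5.86 and a −log10 q of 2.72. The PC3 PRMT5 entry, at 49269120 to 49269288, had a fold of 5.41 and a −log10 q of 4.69. Their summits lay 561 bp and 552 bp upstream of the start, 9 bp apart, and the entries had 76 bp in common.
METTL3 entries at PPP1R3F were listed in PC3 only and lay elsewhere. The entry at positions 49276725 to 49277016, 7.04 kb into the gene, had a fold of 3.62, and the entry at 49301600 to 49301891, whose summit lay 391 bp beyond the 3′ end, had a fold of 3.79. Their −log10 q was 1.63 for each, above 1.18% of the list, whose lowest value was 1.31. Both were 292 bp wide, the smallest width of that list, which 5436 of its 7453 entries had. They lay 7.59 kb and 32.6 kb from the PC3 PRMT5 summit, and no METTL3 entry overlapped a PRMT5 entry at this gene.
The gene GAGE10 starts 1786 bp beyond the last of these summits, and 4 further PC3 METTL3 entries lay within 100 kb. At a −log10 q of at least 3, PPP1R3F kept an entry in 1 list, PC3 PRMT5.

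**Figure D2:**
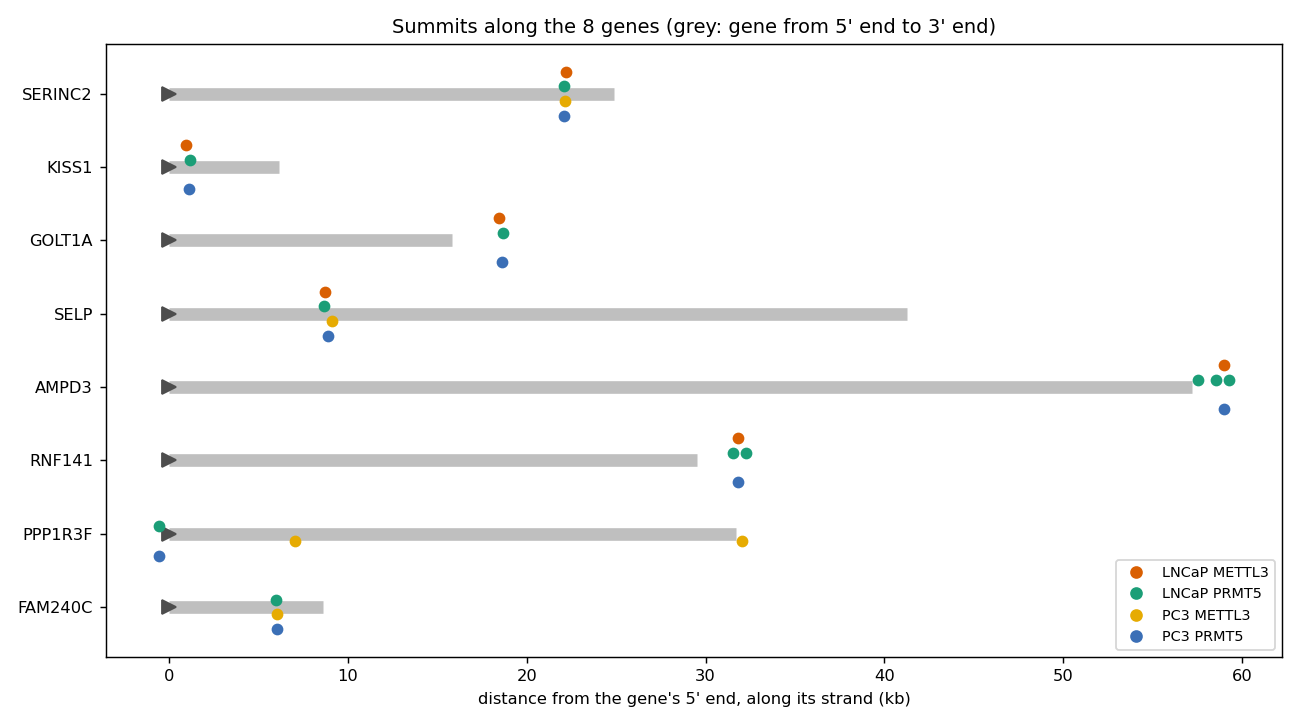
Summits of the entries (points, coloured by list) along the 8 genes, drawn from the 5′ end to the 3′ end in grey, with distance from the 5′ end in kb. Summits lie inside SERINC2, KISS1, SELP and FAM240C, and beyond the 3′ ends of GOLT1A, AMPD3 and RNF141. At PPP1R3F the PRMT5 summits lie 0.552 kb and 0.561 kb before the start. The PC3 METTL3 summits there lie 7.04 kb after the start, inside the gene, and 0.391 kb beyond its 3′ end.

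Across the 6 loci the positions had little in common. Of the 23 summits, 15 lay inside a member gene. Those of SERINC2 lay toward the 3′ end, those of KISS1 and SELP 0.959 kb to 9.10 kb after the start, and those of AMPD3 and RNF141 past the 3′ end. The LNCaP PRMT5 and PC3 PRMT5 lists had overlapping entries at all 6 loci. Their closest summits were 9 bp apart at PPP1R3F, 8 bp at FAM240C and 36 bp at SERINC2. They were 50 bp apart at KISS1, 223 bp at SELP and 279 bp at AMPD3 and RNF141. The LNCaP METTL3 and PC3 METTL3 lists both had entries at 2 loci, with summits 80 bp apart at SERINC2 and 411 bp apart at SELP. The same lists chose these loci, so no agreement between the lines is read from these counts. How often entries of the lines overlap over whole lists was not counted.

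The loci fell on either side of the main trend of fold and −log10 q in their lists. Of the 23 entries 16 were below the median fold of their own list, and 17 were above its median −log10 q. In LNCaP PRMT5 the PPP1R3F entry lay below the trend, with a −log10 q of 2.72 against a median of 3.98 over entries with a fold within 1.2 times of it. SELP lay close to the middle of the trend in that list, with 8.94 against a median of 9.21, and widths of similar fold from 1.3 to 1.5 times put it above the median instead. SERINC2 and the strongest entry of AMPD3 and RNF141 lay above it, the AMPD3 and RNF141 entry with a −log10 q of 266 against a median of 5.30 in 409 entries of similar fold.

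**Figure D3:**
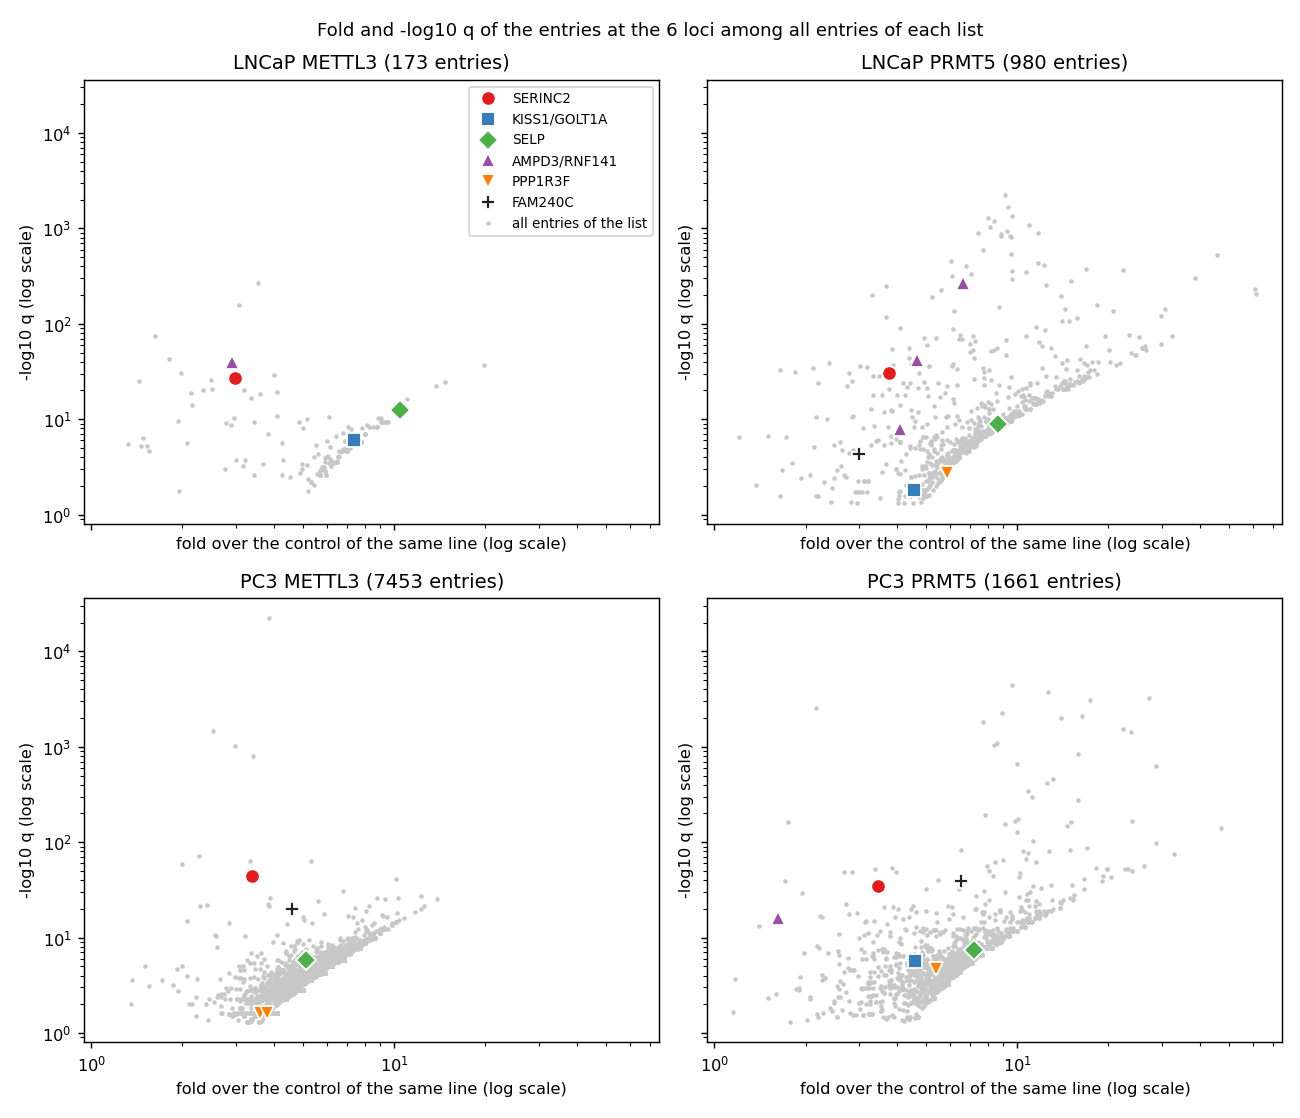
Fold (x axis, log scale) and −log10 q (y axis, log scale) of the entries at the 6 loci, as coloured symbols, among all entries of each list, as grey points. SERINC2, with −log10 q of 27.2 to 44.5 at folds of 2.97 to 3.77, is above 99.3% of entries of similar fold in PC3 METTL3 and 97.4% in PC3 PRMT5, but above 76.5% of only 17 in LNCaP METTL3 and 84.9% of 73 in LNCaP PRMT5. SELP has −log10 q of 5.88 to 12.5 at folds of 5.10 to 10.5.

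The start-site windows of the 8 genes, which the choice of genes did not use, were mixed in base composition. RefSeq gives 16 windows for them, and none overlapped an entry. SELP had 1 CpG dinucleotide in its window and a GC content of 49.7%, with none of the 4 motifs. RNF141 had 31 CpG and PPP1R3F 22, GOLT1A had 23 and KISS1 had 9. SERINC2 had windows with 1, 4, 27 and 42 CpG, AMPD3 windows with 1, 3, 9 and 35, and FAM240C windows with 11, 17 and 19. The median over windows of protein-coding genes was 21 CpG, with quartiles of 7 and 31, and a median GC content of 62.3%.

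**Figure D4:**
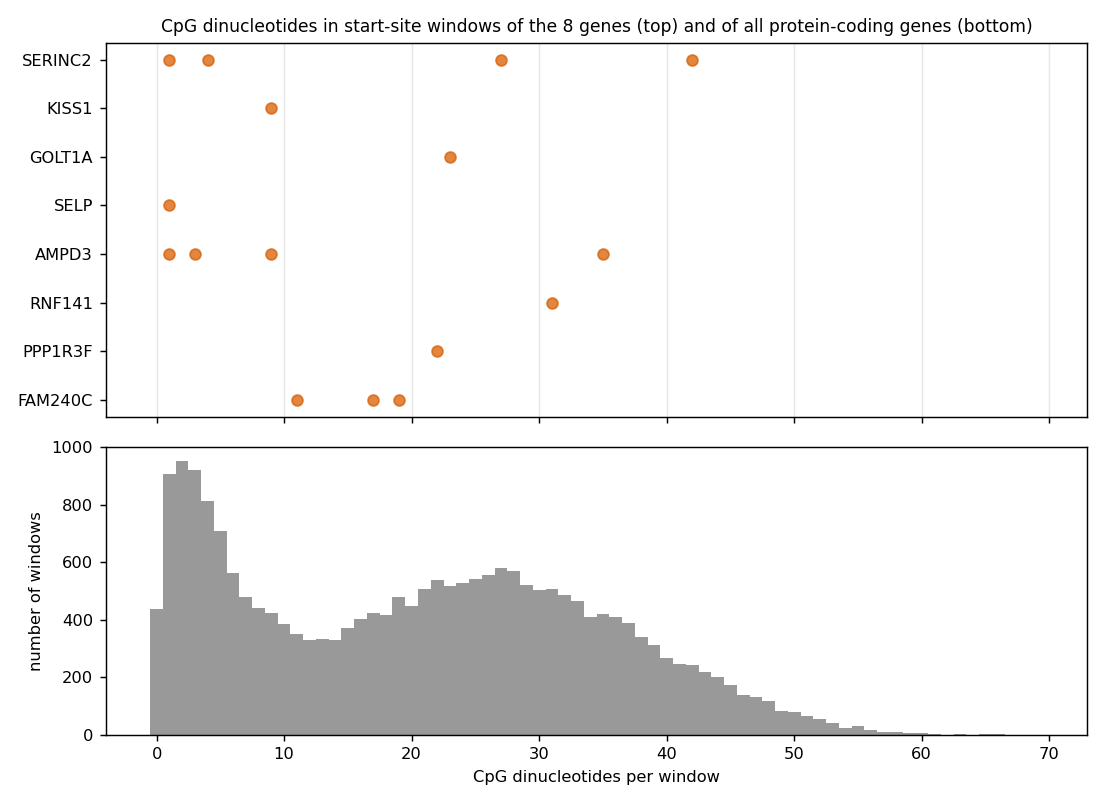
CpG dinucleotides in the start-site windows of the 8 genes (upper panel, a point per window) and in those of all protein-coding genes (lower panel, number of windows per count). The points run from 1 to 42 and lie on both humps of the lower panel.

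Of 40 other genes in their families and pathways, none had an entry in LNCaP METTL3, 1 in LNCaP PRMT5 (2.5%), 2 in PC3 METTL3 (5%) and 2 in PC3 PRMT5 (5%), against 0.389%, 3.08%, 11.6% and 4.59% of all protein-coding genes in that order. The gene among them with entries in more than 1 list was SERINC4, with a fold of 10.7 in LNCaP PRMT5 and of 5.42 and 2.90 in PC3 PRMT5, all outside the gene. PPP1CA, a catalytic subunit of protein phosphatase 1, had 3 entries in PC3 PRMT5, with folds of 5.49 to 7.11. PYGL, the liver glycogen phosphorylase, had 3 in PC3 METTL3 with folds of 4.10 to 6.83, and GOLT1B had 1 there with a fold of 4.70. The receptor KISS1R, the P-selectin ligand SELPLG and the other AMP deaminases AMPD1 and AMPD2 had none.

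The 8 genes had a median length of 27.2 kb, with a range of 6.15 kb to 57.2 kb, against 121 kb for all 69 genes that met the rule and 24.1 kb for all protein-coding genes. The 21 genes with a single region shared by 3 or 4 lists, 7 of them described here, had a median of 29.5 kb. Among the 5009 longest genes 0.858% met the rule, and among the 5010 shortest 0.0599%. PTPRN2, COL23A1 and CDH4 were the remaining genes with entries in 4 lists, with 26, 7 and 11 entries over 1049 kb, 353 kb and 688 kb. Just below the rule, 453 genes had entries in exactly 2 lists, 216 of them with both antibodies.

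Besides the 7 genes here, 14 protein-coding genes held a single region shared by 3 lists, and likeness was ranked by the lowest fold over those lists. The first was RBPJ, the DNA-binding factor of Notch signalling, with folds of 6.16 in LNCaP PRMT5, 7.13 in PC3 METTL3 and 7.95 in PC3 PRMT5 and summits within 43 bp. SLC10A7, a transporter family gene, followed among named genes with 6.06 in LNCaP METTL3, 8.26 in PC3 METTL3 and 4.50 in PC3 PRMT5. ULK1, the kinase that starts autophagy, had 14.4 in LNCaP PRMT5, 4.16 in PC3 METTL3 and 8.43 in PC3 PRMT5. The lowest folds were 3.84 at PTPRN2, 3.18 at the mucin gene MUC4, 3.10 at SMOC2, 2.07 at CLPTM1L and 1.78 at GRHL2, an epithelial transcription factor gene. LOC102724813 and LOC124907874 had lowest folds of 5.84 and 5.70, and LOC102723655 and LOC107987423 shared a region with 2.89. At ULK1, CLPTM1L, RBPJ, LOC102724813 and LOC124907874, as at FAM240C, LNCaP METTL3 was the list without an entry. At PTPRN2 its entries lay outside the shared region. PC3 METTL3 was the list without an entry at GRHL2, LOC102723655 and LOC107987423, as at KISS1, GOLT1A, AMPD3 and RNF141. LNCaP PRMT5 was missing at SLC10A7 and MUC4, and PC3 PRMT5 at SMOC2. LNCaP METTL3 was the shortest list, with 173 entries and with 0.389% of protein-coding genes having an entry.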

How the data were processed

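Gene positions and start-site windows came from RefSeq tables of GRCh38.p14, whose primary coordinates are those of hg38; all 8 symbols matched. Per the submitters' processing notes, the build was hg38 and the tools were ChIPseeker, MACS2 2.1.0, Bowtie 1.1.1, Trimmomatic 0.33 and bcl2fastq 2.17. Their settings, not given in the sources used here, include the treatment of duplicates and of read shifts. The 4 deposited lists were called per library, and their names pair each with the control of its line. The fold (a ratio over the control), the −log10 p, the −log10 q and the score, 10 times the −log10 q, are values the authors deposited per peak. Depth is unknown, so no interval was computed. Entries of the chromosomes 1 to 22, X and Y were assigned to genes by summit with Python 3.11.15 and pandas 2.3.3, checked on simulated data, and entries sharing at least 1 bp were joined. Members and lists were chosen with earlier results of these data known. Named genes are the members, their neighbours and families, and the 12 genes most like them by lowest fold. Windows, thresholds and overlap definitions were varied. A marker of the luminal list is not reported here. The comparison of −log10 q with entries of similar fold was added after the data were seen. Its width was first slightly wider and was set to 1.2 times, with values at the first width known and for no reason in the data. No genome sequence was used here, so exons, repeats and motifs under the entries were not analysed.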

Additional observations from a re-analysis of the deposited data

How the results depend on the processing

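Settings were changed singly. With summits inside genes only, 4 of the 8 genes kept entries in 3 or 4 lists, 4 kept a region shared by 3 or 4 lists (7 otherwise) and 15 of 23 entries remained. With a window of 1 kb these numbers were 5 genes and 4 genes, with 19 entries. A −log10 q of at least 3 left 5 members and 44 of the 69 genes, and a fold of at least 5 left 1 member, 32 genes, 1 shared region and 9 entries. Gene ends alone left 11 genes and all gene types gave 112. Asking for summits within 100 bp left 2 members with a shared region, SERINC2 and FAM240C. Leaving out each list in turn, and asking for 2 of the remaining 3, gave 7 to 8. A region shared by 3 or 4 lists keeps at least 2 when 1 is left out, so this count could not fall and tests nothing. It was 8 without LNCaP METTL3 and without PC3 METTL3, where PPP1R3F was counted through its 2 PRMT5 entries alone. The other settings, wider windows, any base of an entry, reciprocal overlap of 50% and summits within 500 bp, stayed within 1.5 times. Over 64 combinations of member and setting, the number of lists was the same in 46 and lower in 18. The 46 include all combinations with wider windows or any base of an entry, settings that can only add lists. All 18 lower counts came from the remaining settings, so 46 of 64 overstates stability. The width of similar fold was varied after the data were seen. SELP in LNCaP PRMT5 had a −log10 q that differed from the median at similar fold by -0.26 at 1.2 times and -0.67 at 1.1 times, but was above it by 0.13 at the slightly wider width first used, 0.82 at 1.3 times and 2.09 at 1.5 times, so its side of the median is not settled. SERINC2 in PC3 METTL3 and the strongest AMPD3 and RNF141 entry stayed above their medians and PPP1R3F in LNCaP PRMT5 below it at each of these widths. Unknown depth limits every absence of an entry. No paired analysis was possible because each group has 1 library and the labels give no replicate numbers.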

Other observations

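In PC3 METTL3 entries ranked higher by −log10 q than by fold at SERINC2, FAM240C and SELP. SERINC2 and FAM240C were numbers 9 and 27 of 7453 by −log10 q and numbers 7307 and 5437 by fold, and SELP was number 729 by −log10 q and 3726 by fold. The PC3 METTL3 entries at PPP1R3F went the other way as shares of the list, above 3.06% and 4.63% by fold but above 1.18% by −log10 q. At LOC102724250, on chromosome 1 and named after its values were seen, a region in 3 lists had −log10 q of 156 in LNCaP METTL3, 820 in LNCaP PRMT5 and 1.68 in PC3 PRMT5 with folds of 3.08, 9.53 and 1.16. These values are descriptions, and their cause was not tested.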
